A study of Mus musculus with 9 samples.

Results

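The comparison described here set 1 RNA sequencing library from the muscle of a tumour-bearing mouse given MDC against 1 library from the muscle of a tumour-bearing mouse given PBS. They are 2 of the 9 libraries of the study and were taken by their labels, which give the status as tumour, the tissue as muscle and the treatment. The other libraries are 2 of kidney and 5 of muscle, and the 5 muscle libraries serve here as reference values. These are 2 wild type libraries given PBS, 1 wild type library given DKK1, and 1 library each of PBS and DKK1 labelled as beta-arrestin knockout. The labels name MDC by its letters alone and do not state the tumour, its site, the muscle sampled, the dose, or the strain, age and sex of the mice. Set letters in the table names place the MDC, tumour PBS and first wild type PBS libraries in set B and the remaining 4 muscle libraries in set C. As a check of the knockout label, the PBS library so labelled had Arrb1 at 20.5 and Arrb2 at 9.61 CPM, and its DKK1 counterpart had 28.2 and 7.98 CPM. Neither gene was lower there than in both wild type PBS libraries, where Arrb1 stood at 17.3 and 20.3 CPM while the Arrb2 values were 7.59 and 7.85 CPM. With 1 library on each side the comparison had no replicate check. The values describe these 2 libraries, and any difference between treatments cannot be told apart from a difference between 2 animals or samples.

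Cancer cachexia is the loss of muscle and fat that accompanies a tumour, and the study's title concerns the uptake of the Wnt co-receptor LRP6 into cells under Dkk1, a secreted Wnt inhibitor. Wasting muscle is known for ubiquitin ligases under FoxO control, and tumours also act on muscle and its resident fat, vessel and immune cells through cytokines. Many of those cytokines signal through JAK kinases and STAT factors, which switch on their own feedback inhibitors, among them Cish and the SOCS genes, while Bcl6 is a repressor that STAT5 is known to hold down.

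The promoters of 2 gene pairs that stood apart are shown first, since both pairs have well known upstream factors. The sequences are RefSeq windows of build GRCm38.p6 that run from 250 bases before to 50 bases after an annotated start, 5′ to 3′ on the gene's strand. Capitals mark matches to the STAT motif TTCNNNGAA in Cish and Bcl6 and to the metal response core TGCACNC or TGCGCNC in Mt2 and Mt1, on either strand.
Cish, chr9:107296409-107296708, plus strand: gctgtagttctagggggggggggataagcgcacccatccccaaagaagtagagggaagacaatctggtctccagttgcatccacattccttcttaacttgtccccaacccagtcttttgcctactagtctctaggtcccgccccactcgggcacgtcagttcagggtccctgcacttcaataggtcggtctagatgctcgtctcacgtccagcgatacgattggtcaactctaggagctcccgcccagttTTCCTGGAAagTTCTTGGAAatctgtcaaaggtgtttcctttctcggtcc
Bcl6, chr16:23988803-23989102, minus strand: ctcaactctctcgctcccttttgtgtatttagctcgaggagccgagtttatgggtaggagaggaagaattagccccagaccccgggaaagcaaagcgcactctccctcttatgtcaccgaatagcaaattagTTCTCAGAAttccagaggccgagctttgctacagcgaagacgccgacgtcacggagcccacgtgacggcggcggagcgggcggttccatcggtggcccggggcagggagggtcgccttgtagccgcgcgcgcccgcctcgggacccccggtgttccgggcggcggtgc
Bcl6, second annotated start, chr16:23981234-23981533, minus strand: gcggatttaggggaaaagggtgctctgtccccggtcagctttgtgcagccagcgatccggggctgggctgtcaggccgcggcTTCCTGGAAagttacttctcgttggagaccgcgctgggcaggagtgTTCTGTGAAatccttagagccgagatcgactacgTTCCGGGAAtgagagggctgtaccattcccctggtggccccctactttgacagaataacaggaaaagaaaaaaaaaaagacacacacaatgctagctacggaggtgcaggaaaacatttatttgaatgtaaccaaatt
Mt2, chr8:94172368-94172667, plus strand: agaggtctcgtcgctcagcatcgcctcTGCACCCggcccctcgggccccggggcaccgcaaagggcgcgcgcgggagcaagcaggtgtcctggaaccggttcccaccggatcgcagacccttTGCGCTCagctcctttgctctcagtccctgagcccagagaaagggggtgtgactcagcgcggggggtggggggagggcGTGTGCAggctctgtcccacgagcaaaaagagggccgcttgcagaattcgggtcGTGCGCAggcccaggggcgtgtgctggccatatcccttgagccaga
Mt1, chr8:94178839-94179138, plus strand: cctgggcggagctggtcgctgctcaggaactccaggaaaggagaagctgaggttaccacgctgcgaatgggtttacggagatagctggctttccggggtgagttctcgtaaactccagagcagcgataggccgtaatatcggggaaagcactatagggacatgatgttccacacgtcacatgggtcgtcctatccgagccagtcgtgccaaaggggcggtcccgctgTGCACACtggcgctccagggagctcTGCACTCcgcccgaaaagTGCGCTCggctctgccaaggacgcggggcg

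The Cish window held 2 STAT matches, at bases 251 to 259 and 262 to 270 of the 300. The first Bcl6 window held 1 match and the second held 3. Of all 32851 RefSeq windows 8.30% held this motif, and of 8342 genes that had both a promoter and enough counts 8.15% did. It was found in 6 of 91 such genes (6.59%) at least 2-fold higher in the MDC library and in 23 of 249 (9.24%) at least 2-fold lower. The metal response core had 4 matches in Mt2 and 3 in Mt1, and it is common, with a match in 25.7% of all windows and 40.8% of the genes with enough counts. It was found in 40 of the 91 higher genes (44.0%) and in 87 of the 249 lower genes (34.9%). A match is a description of the letters only.

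Expression is given as CPM, counts scaled to a common library size, after TMM scaling over the 7 muscle libraries, and a log2 ratio is MDC minus PBS on log2 CPM with a prior count of 2. Total counts were 26181062 in the MDC library and 32607835 in the PBS library, and a count of 0 allowed up to 0.134 and 0.0882 CPM. Skeletal muscle markers were detected for 20 of 20 genes in both, with a summed level of 246692 CPM under MDC, 178741 CPM under PBS, and 296120.5 and 135488 CPM in wild type libraries 1 and 2. Rn45s, the ribosomal RNA precursor, took 2.51% of counts in the MDC library and 0.545% in the PBS library. With it and 3 transcripts of other kinds (Lars2, Rmrp and Rpph1) left out of the scaling, the counts of genes past 2-fold given next, 129 and 348, became 124 and 363. Reads were counted by a method whose strand setting is not given in the sources used here, so overlapping genes on opposite strands cannot be told apart.

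The MDC and PBS libraries were alike for most genes. Of 10982 genes with 100 or more counts in the higher library, 129 were at least 2-fold higher in the MDC library (1.17%) and 348 at least 2-fold lower (3.17%), 4.34% in all. The median log2 ratio was 0.02 (SD across genes 0.487), and 5920 genes (53.9%) differed by less than 1.2-fold. At least 4-fold separated the libraries for 18 genes higher and 51 lower under MDC. The excess of lower genes varied with the minimum. Scaled for depth the PBS library was 1.52 times the size of the MDC library, and 254 of the 348 lower genes reached 100 counts in the PBS library alone. With a minimum of 4.47 CPM in the higher library, the level of 100 counts in the MDC library, 128 genes were higher and 243 lower. With 500 or more counts in the higher library 58 were higher and 75 lower. Among 9851 genes with 100 counts in both libraries 99 were higher and 94 lower, a rule that asks for a higher level in a lower gene than in a higher one because the MDC library was smaller. The first and last of these minimums were chosen after seeing the data. Scaling by total counts alone gave 61 higher and 741 lower, so that 7.61% of the genes past 2-fold were higher in place of 27.0%, and moved the median log2 ratio of all genes to -0.27.

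edgeR's quasi-likelihood test, fitted to all 7 muscle libraries, called none, 0 of 15482 tested (0.0%), and 38 genes had an unadjusted p under 0.05. DESeq2 and limma-voom made 0 calls as well, and 55 and 26 genes respectively had an unadjusted p of that size. Those fits take their spread from the wild type pair, with 1 residual degree of freedom. That pair is 1 library of set B and 1 of set C, so its spread can include a difference between sets, whereas MDC and PBS are both of set B. The results that follow are therefore sizes with counting intervals and not calls. At the edge of the rule, Rtel1 lay just inside with a log2 ratio of 1.005 and Hba-a2, an alpha-globin gene, just outside with 0.997. On the lower side Itgb2, an integrin subunit of white blood cells, lay just inside at -1.002 and Ogn, a matrix proteoglycan, just outside at -0.997. The plot of log2 ratio against level shows the genes described next.

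**Figure D1:**
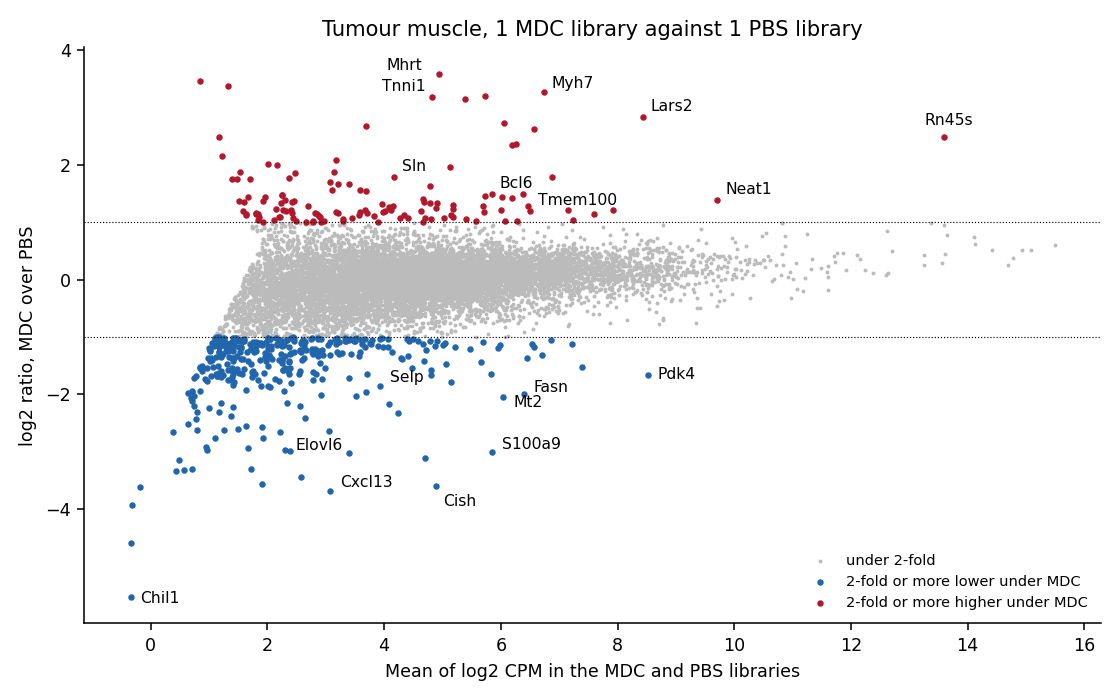
Each point is 1 of 10982 genes with 100 or more counts in the higher library. The horizontal axis is the mean log2 CPM of the MDC and PBS libraries and the vertical axis their log2 ratio. Dotted lines mark 2-fold, with 129 genes above the upper line in red and 348 below the lower line in blue, and most lower genes lie at the left, where levels are low.

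Cish was the leading JAK-STAT gene. It encodes an inhibitor that binds cytokine receptors after STAT5 activation (chromosome 9, 107296026 to 107302784 in mm10). The MDC library had 188 counts, or 8.4 CPM, against 3496 counts, or 103 CPM, in the PBS library, a PBS to MDC ratio of 12.2 (95% counting interval 10.6 to 14.3). Wild type PBS libraries 1 and 2 were at 11.7 and 7.29 CPM, and the DKK1 library and those labelled knockout PBS and knockout DKK1 at 55.9, 33.8 and 32.2 CPM. The PBS library was thus the highest of the 7, and the MDC library lay between the wild type PBS libraries. Bcl6 (chromosome 16, 23965052 to 23988852 in mm10) went the other way, with 96.3 CPM in the MDC library and 34.1 CPM in the PBS library, a ratio of 2.82 (95% counting interval 2.63 to 3.03). The 5 other libraries ranged from 45.7 to 96.7 CPM, so the PBS library was the lowest of the 7 and the MDC library was inside the range.

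Of the 15 feedback and STAT5 target genes listed, 12 had 100 counts, 1 was at least 2-fold higher (Bcl6) and 1 lower (Cish), with a median log2 ratio of -0.32 beside 0.02 for all genes. Socs2, which limits growth hormone signalling, was at 16.8 CPM in the MDC library and 31.1 CPM in the PBS library, with wild type PBS at 10.4 and 12 CPM. Socs3, the feedback inhibitor of the IL-6 receptor, was at 13.9 CPM in the MDC library and 25.5 CPM in the PBS library, with wild type PBS at 9.47 and 12.1 CPM. Both lay under 2-fold, with the PBS library the higher. Socs1, an inhibitor of interferon signalling, had 10 counts against 74, under the count minimum. Ccnd2, a G1 cyclin, and Pim2, a survival kinase, had log2 ratios of -0.95 and -0.89. Pim1, a related kinase, had a log2 ratio of -0.39, and Igf1, the growth factor made under growth hormone, one of -0.25. Transcripts of the pathway's own components lay closer together. Of 22 receptors and transducers with 100 counts, only Csf3r, the G-CSF receptor of neutrophils, passed 2-fold, at 2.64 CPM in the MDC library and 14.3 CPM in the PBS library. Stat5b, a STAT5 gene that acts under growth hormone, was at 333 and 255 CPM, and the growth hormone receptor Ghr at 182 and 191 CPM.

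**Figure D2:**
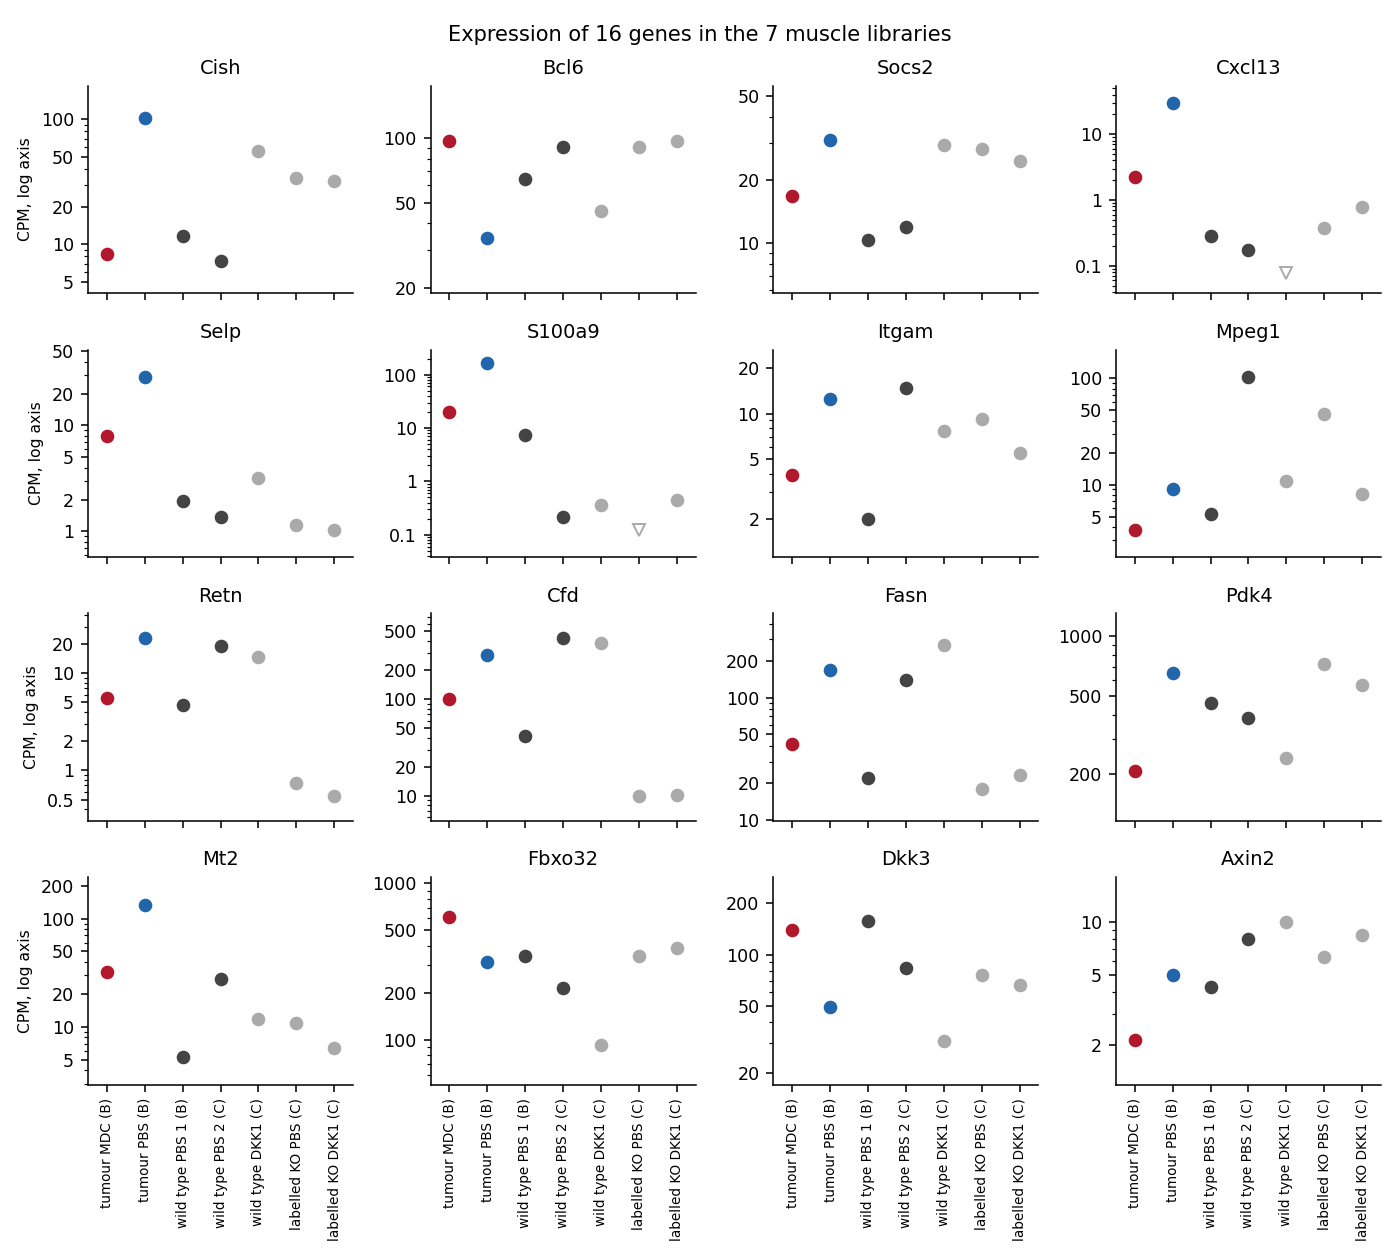
Each panel gives the CPM of 1 gene on a log axis in the 7 muscle libraries, with MDC in red, tumour PBS in blue, wild type PBS in dark grey and the other 3 in light grey. Open triangles mark 0 counts, drawn at the limit of 3 counts. Cish is at 103 CPM in the tumour PBS library and at 8.4 CPM under MDC, while Mpeg1 and Fasn vary as much between the wild type libraries.

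Neutrophil genes were lower in the MDC library. Neutrophils carry antimicrobial proteins in granules that are filled in order during maturation, and their RNA in muscle comes from cells in vessels or tissue. In whole tissue, fewer cells of a type and less RNA per cell cannot be told apart. S100a9, a calcium-binding protein abundant in neutrophil cytoplasm (chromosome 3, 90692632 to 90695721 in mm10), had 20.2 CPM in the MDC library and 164 CPM in the PBS library, a PBS to MDC ratio of 8.08 (95% counting interval 7.34 to 8.91). Wild type library 1 was at 7.36 CPM and the 4 libraries of set C from 0 to 0.455 CPM. All 3 libraries of set B were thus above those of set C, and the PBS library was the highest of the 7. Its partner S100a8 had the same order within set B, with 8.76, 76 and 3.19 CPM in the MDC, PBS and wild type libraries.

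Of 19 granule genes 10 had 100 counts, and each of the 10 was at least 2-fold lower, with a median of -2.78. For 9 of the 10, however, the PBS library alone reached that minimum, so the rule itself chose them for a high PBS value. Summed over the 19 genes, the level was 81.7 CPM under MDC and 256 CPM under PBS. Wild type libraries 1 and 2, at 41.5 and 359 CPM, enclosed both. The sum counts Lyz2, which is also in the macrophage list, so it does not stand for neutrophils alone. Single members could be low in wild type library 2, with Ngp at 0 and Lcn2 at 3.27 CPM there. The 10 genes differed by a median of 1.87 between wild type libraries 2 and 1. Chil1, a chitinase-like granule protein, had the lowest ratio, with 1 count under MDC against 180. Among genes of the later granules, Ngp, a neutrophil granule protein, was at 3.62 CPM in the MDC library and 29.9 CPM in the PBS library, with wild type PBS at 1.69 and 0 CPM. The iron binder Lcn2 was at 3.26 CPM in the MDC library and 20.6 CPM in the PBS library, with wild type PBS at 0.328 and 3.27 CPM. The cathelicidin gene Camp was at 1.21 CPM in the MDC library and 7.44 CPM in the PBS library, and the collagenase gene Mmp8 at 1.07 CPM in the MDC library and 8.67 CPM in the PBS library. Genes of the earliest granules were near 0 in both libraries. Mpo, myeloperoxidase, had 8 counts under MDC and 56 under PBS, Elane, neutrophil elastase, 5 and 22, and Ctsg, cathepsin G, 2 and 13.

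Of 15 neutrophil surface and cytoplasm genes with 100 counts, 13 were at least 2-fold lower, 11 of the 15 reaching the minimum in the PBS library alone. The summed level over the 25 genes detected was 103 CPM under MDC and 398 CPM under PBS, against 33.8 and 76.1 CPM in wild type PBS. Cxcr2, the receptor that draws neutrophils out of blood, was at 1.79 CPM in the MDC library and 11.6 CPM in the PBS library. The formyl peptide receptor gene Fpr2 was at 0.447 CPM in the MDC library and 5.03 CPM in the PBS library. Hdc, which makes histamine, was at 0.759 CPM in the MDC library and 5.53 CPM in the PBS library. Mrgpra2b, a receptor of mature neutrophils, had 3 counts against 104, a ratio of 22.8 (95% counting interval 7.6 to 112), and 0 in the other 5 libraries. Ifitm6, an interferon-induced membrane protein of myeloid cells, was at 1.38 CPM in the MDC library and 9.79 CPM in the PBS library.

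Selp and Icam1, adhesion genes through which white cells leave the blood, were at least 2-fold higher in the PBS library. Selp, P-selectin of activated endothelium, was at 8.0 CPM in the MDC library and 28.9 CPM in the PBS library, a PBS to MDC ratio of 3.61 (95% counting interval 3.08 to 4.26). The other 5 libraries ranged from 1.03 to 3.17 CPM, so both tumour libraries were above them and the PBS library was the highest. Icam1, the ligand of leukocyte integrins, was at 9.92 CPM in the MDC library and 22.2 CPM in the PBS library, with wild type PBS at 4.08 and 4.97 CPM. Sele, E-selectin, had 22 counts against 81, and Vcam1 differed by a log2 ratio of -0.58. Of 28 endothelial genes with 100 counts 4 were at least 2-fold lower and 1 higher (median -0.40). Kdr, the main VEGF receptor, was at 29.2 CPM in the MDC library and 67.3 CPM in the PBS library, and the wild type PBS libraries, at 32.9 and 68.2 CPM, enclosed the tumour PBS value and not the MDC value. Vwf, von Willebrand factor, was at 14.7 CPM in the MDC library and 30.8 CPM in the PBS library. The pan-endothelial genes Pecam1 and Cdh5 had log2 ratios of -0.44 and -0.28. Tmem100, an endothelial gene of the BMP pathway, was the member that was higher, at 137 CPM in the MDC library and 59.9 CPM in the PBS library, a ratio of 2.29 (95% counting interval 2.16 to 2.42), with wild type PBS at 8.67 and 26.8 CPM. It came under 2-fold when libraries were scaled by total counts.

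Cxcl13, the chemokine that draws B cells through Cxcr5 (chromosome 5, 95956951 to 95961068 in mm10), had 2.28 CPM in the MDC library and 30.2 CPM in the PBS library, a PBS to MDC ratio of 13.3 (95% counting interval 10.01 to 17.9). The other 5 libraries lay between 0 and 0.789 CPM, so both tumour libraries were above all of them. B and T cells themselves left little RNA. The 21 lymphocyte markers detected summed to 5.0 CPM under MDC and 5.91 CPM under PBS, and none reached 100 counts. All 17 chemokine and receptor genes with 100 counts had log2 ratios below 0, whereas 5684 of all 10982 genes were above 0. Of the 17, 8 reached 100 counts in the PBS library alone, and 5 were at least 2-fold lower (median -0.64). Besides Cxcl13 and Cxcr2 these were Cx3cr1 and Ccr2, receptors of monocytes, and the chemokine gene Ccl8. Ccr2 was at 6.39 CPM in the MDC library and 12.9 CPM in the PBS library, with wild type PBS at 2.02 and 11.7 CPM.

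Macrophage and monocyte markers were lower in part. Of 29 with 100 counts 13 were at least 2-fold lower and 0 higher (median -0.87), 12 of the 29 reaching the minimum in the PBS library alone. Summed over 38 genes, the level was 268 CPM under MDC, 493 CPM under PBS, and 161 and 1020.4 CPM in the wild type libraries, so the wild type pair enclosed both. Itgam, the CD11b integrin that neutrophils share, was at 3.93 CPM in the MDC library and 12.5 CPM in the PBS library, and Cd14, the endotoxin co-receptor, at 3.31 CPM in the MDC library and 10.1 CPM in the PBS library. The list held unlike members. Csf1r, the growth factor receptor of macrophages, had a log2 ratio of -0.79, the complement gene C1qa one of -0.54, and Lyve1, a marker of resident macrophages and lymph vessels, one of 0.25. Among complement genes, the receptors C5ar1 and C3ar1, C3 itself and Cfd were at least 2-fold lower (4 of 15, median -0.69). The PBS library alone reached the minimum for 2 of the 15, and Cfd is also in the adipocyte list. C3, the central protein of the cascade, was at 101 CPM in the MDC library and 219.9 CPM in the PBS library.

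Interferon and antigen presentation genes did not follow the neutrophil genes. Of 30 interferon response genes with 100 counts 1 was at least 2-fold lower, Ifi27l2a, and the median was -0.04. The 5 MHC class II genes with 100 counts had log2 ratios from -0.56 to -0.09. In the acute phase list, Hp (haptoglobin), Cp (ceruloplasmin), C3, Lcn2 and Il1b were at least 2-fold lower and Hpx higher among 14 members. Of the 14, 2 reached the minimum in the PBS library alone and 1 in the MDC library alone. Hpx, hemopexin, which binds free haem, was at 5.05 CPM in the MDC library and 1.44 CPM in the PBS library, and Hp at 18.9 CPM in the MDC library and 65.5 CPM in the PBS library, with wild type PBS at 6.7 and 229.6 CPM. Il1b, the cytokine interleukin-1 beta, had 15 counts against 133, and its antisense gene Il1bos overlaps it.

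Fat cell genes were lower in the MDC library, to a degree that the wild type pair exceeded. Of 19 adipocyte markers with 100 counts 11 were at least 2-fold lower and 0 higher (median -1.07), 5 of the 19 reaching the minimum in the PBS library alone, and the same members differed by a median of 2.00 between wild type libraries 2 and 1. Retn, resistin, which fat cells secrete (chromosome 8, 3655770 to 3660110 in mm10), had 5.58 CPM in the MDC library and 22.9 CPM in the PBS library, a PBS to MDC ratio of 4.1 (95% counting interval 3.39 to 4.99), with wild type PBS at 4.69 and 18.9 CPM. Adipoq, the adiponectin gene, was at 13.3 CPM in the MDC library and 33.4 CPM in the PBS library, with wild type PBS at 13.4 and 109 CPM. Cfd, adipsin, was at 99.3 CPM in the MDC library and 286 CPM in the PBS library, with wild type PBS at 41.9 and 427 CPM. In each of these the PBS library was above MDC, and for Adipoq and Cfd the wild type libraries lay farther apart than MDC and PBS. Lep, leptin, was at 0.983 CPM in the MDC library and 3.41 CPM in the PBS library, and Adrb3, the fat cell adrenergic receptor, at 2.05 CPM in the MDC library and 7.62 CPM in the PBS library. Members that muscle and vessels also express differed less, with log2 ratios of 0.05 for the lipase gene Lpl, 0.11 for the carbonic anhydrase gene Car3 and -0.67 for the fatty acid carrier Fabp4. Hcar1, the lactate receptor, was at 1.07 CPM in the MDC library and 5.88 CPM in the PBS library and Ptger3, a prostaglandin receptor, at 0.849 CPM in the MDC library and 4.26 CPM in the PBS library, both named for their low ratio and both reaching 100 counts in the PBS library alone.

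Enzymes that build fatty acids and triglycerides followed. Of 26 with 100 counts 10 were at least 2-fold lower (median -0.58), with 24 of the 26 reaching the minimum in both libraries. The steps run from export of citrate from mitochondria to storage. Slc25a1, the citrate carrier, was at 8.4 CPM in the MDC library and 42.4 CPM in the PBS library. Acly, which splits citrate to acetyl-CoA, was at 24.7 CPM in the MDC library and 55.7 CPM in the PBS library, and Acaca, which makes malonyl-CoA, at 22.3 CPM in the MDC library and 48.3 CPM in the PBS library. Fasn, fatty acid synthase (chromosome 11, 120805846 to 120824547 in mm10), had 42 CPM in the MDC library and 168 CPM in the PBS library, a PBS to MDC ratio of 3.99 (95% counting interval 3.72 to 4.28), with wild type PBS at 21.8 and 139 CPM. Elovl6, which lengthens palmitate, was at 1.7 CPM in the MDC library and 13.8 CPM in the PBS library, a ratio of 8.12 (95% counting interval 5.83 to 11.6), and Scd1, the desaturase, at 54.2 CPM in the MDC library and 139 CPM in the PBS library, with wild type PBS at 62.2 and 781 CPM. Gpam and Agpat2, acyltransferases of glycerolipid assembly, had log2 ratios of -1.72 and -1.64. Dgat2, which completes the triglyceride, was at 19.9 CPM in the MDC library and 55 CPM in the PBS library. Each of these 9 genes was at least 2-fold higher in the PBS library, and each was also at least 2-fold higher in wild type library 2 than in library 1. The regulators differed in direction, with Srebf1 at 73.2 CPM in the MDC library and 109 CPM in the PBS library and Mlxipl, the ChREBP gene, at 67.4 CPM in the MDC library and 37.2 CPM in the PBS library, and Me1, which makes NADPH, at 411 and 391 CPM. The 20 sterol synthesis genes with 100 counts had a median log2 ratio of -0.19.

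Pdk4, the kinase that shuts pyruvate out of the mitochondrion during fasting (chromosome 6, 5483351 to 5496309 in mm10), had 208 CPM in the MDC library and 654 CPM in the PBS library, a PBS to MDC ratio of 3.15 (95% counting interval 3.06 to 3.26). Wild type PBS was at 456 and 384 CPM, the DKK1 library at 239 CPM and the libraries labelled knockout PBS and DKK1 at 727 and 564 CPM. The MDC library was the lowest of the 7. Ucp3, a mitochondrial carrier of muscle, was at 80.2 CPM in the MDC library and 167 CPM in the PBS library, with wild type PBS at 222 and 139 CPM, and it too was lowest under MDC. Of 36 fasting and fat oxidation genes 3 were at least 2-fold lower, Pdk4 and Ucp3 among them. The rest of the list was even, with a median of -0.02 and Cpt1b, the gate of mitochondrial fat entry, at 249 and 239 CPM. Fbp2, the muscle fructose bisphosphatase, was higher, at 137 CPM in the MDC library and 56.3 CPM in the PBS library, but under 2-fold with total count scaling. Gamt, the last enzyme of creatine synthesis, was at 7.95 CPM in the MDC library and 35.9 CPM in the PBS library, with wild type PBS at 44.3 and 8.33 CPM.

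Metallothioneins were lower in the MDC library. These small proteins bind zinc and copper and are induced by metals, glucocorticoids and cytokines, the metal response through the factor Mtf1 at the core motif marked in the promoters. Mt2 (chromosome 8, 94172664 to 94173568 in mm10) had 32.3 CPM in the MDC library and 134 CPM in the PBS library, a PBS to MDC ratio of 4.14 (95% counting interval 3.83 to 4.49). Its value was 5.3 CPM in wild type library 1 and from 6.43 to 27.9 CPM in set C. Mt1 (chromosome 8, 94179082 to 94180327 in mm10) had 65.8 CPM in the MDC library and 164 CPM in the PBS library, with wild type PBS at 19.7 and 48.5 CPM and the other 3 libraries from 15.8 to 23 CPM. For both genes the order was tumour PBS, then MDC, then all 5 other libraries. Slc30a1, the zinc exporter that Mtf1 also induces, was at 10.5 CPM in the MDC library and 23.8 CPM in the PBS library, here with the MDC library below all 5 others (16.2 to 24.8 CPM). These were the 3 at least 2-fold lower among 15 metallothionein and zinc transporter genes with 100 counts (median -0.08). Mtf1 itself was at 25 and 22.9 CPM. Among 20 glucocorticoid-responsive genes the members at least 2-fold lower were Mt1, Mt2, Lcn2 and Hsd11b1, and the median was -0.22.

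**Figure D3:**
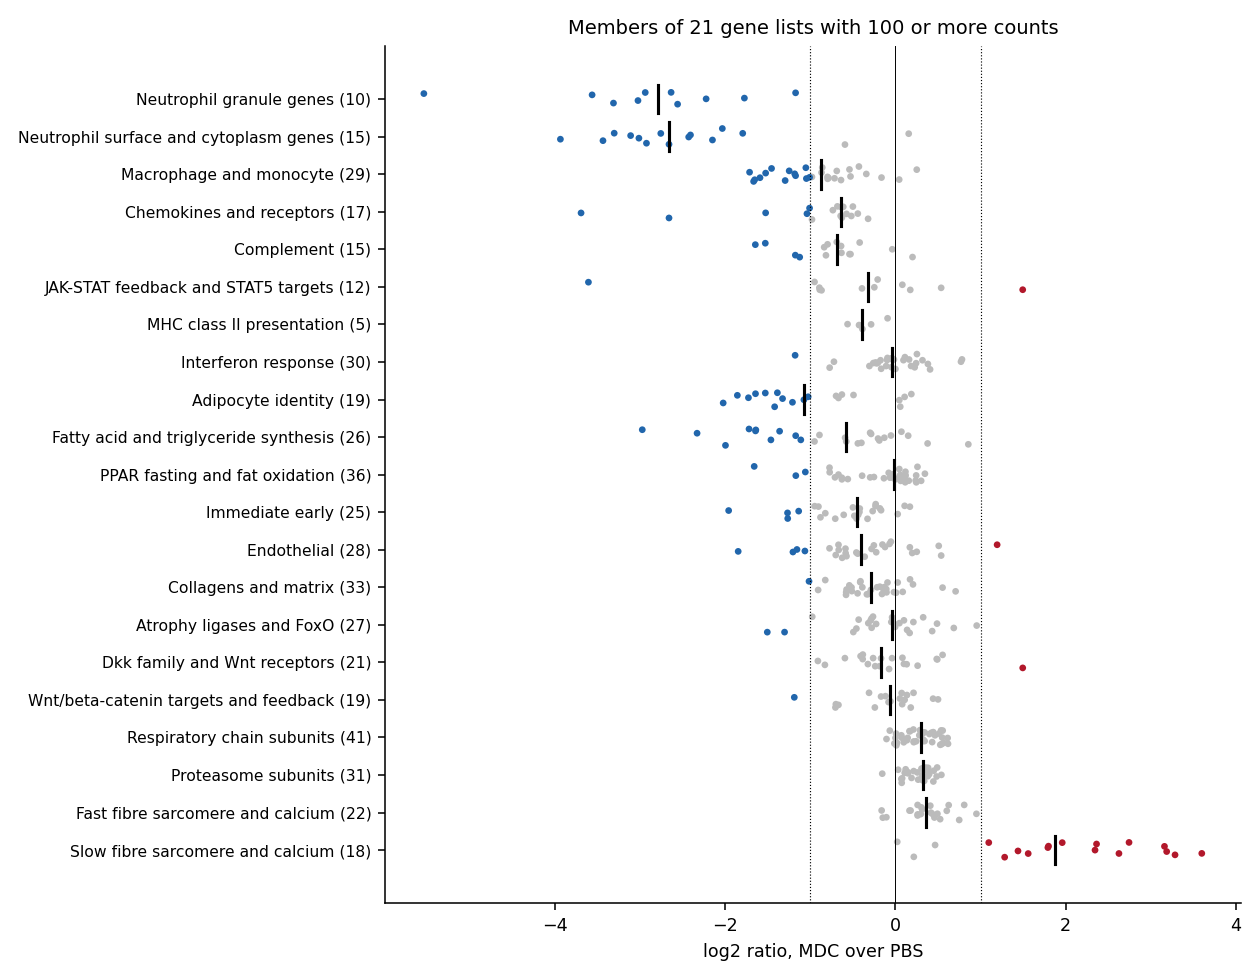
Each point is the log2 ratio, MDC over PBS, of 1 gene with 100 or more counts in 1 of 21 gene lists, with the number of such genes in brackets and a black bar at the median. Red and blue points are at least 2-fold higher and lower, at the dotted lines. Neutrophil lists lie farthest to the left (medians -2.78 and -2.66) and slow fibre genes to the right (1.88).

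Slow fibre genes were higher in the MDC library. Slow fibres use their own myosin, troponin and calcium pump isoforms, and muscles differ widely in how many they hold. Of 18 genes, all with 100 counts in both libraries, 15 were at least 2-fold higher and 0 lower, with a median of 1.88 beside 0.02 for all genes. The same genes differed between wild type libraries 2 and 1 by a median of 5.34. Their summed level was 3549 CPM under MDC and 1760 CPM under PBS, against 545 and 5220 CPM in wild type libraries 1 and 2. It was 6160 CPM in the DKK1 library, and 2275 and 10112 CPM in the libraries labelled knockout PBS and DKK1. Myh7, the slow myosin heavy chain (chromosome 14, 54970684 to 54994626 in mm10), had 332 CPM in the MDC library and 34.1 CPM in the PBS library, a ratio of 9.75 (95% counting interval 9.16 to 10.4). Wild type PBS libraries 1 and 2 were at 2.3 and 135 CPM, the DKK1 library at 138 CPM, and the libraries labelled knockout PBS and DKK1 at 8.37 and 2055 CPM. The MDC library was thus the second of 7, and the range over the 5 others was wider than the difference between MDC and PBS. Mhrt, a non-coding RNA that overlaps Myh7 on the other strand, was at 106 CPM in the MDC library and 8.7 CPM in the PBS library and cannot be told apart from it, and Myh6 is a close copy that could share reads.

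Thin filament and light chain genes stand beside Myh7 in the plot of slow fibre genes. Tnni1, slow troponin I, was at 85.3 CPM in the MDC library and 9.32 CPM in the PBS library, with wild type PBS at 0.0937 and 29.5 CPM. Tnnt1, slow troponin T, was at 172 CPM in the MDC library and 25.7 CPM in the PBS library, with wild type PBS at 1.59 and 46.6 CPM. Tpm3, slow tropomyosin, was at 236 CPM in the MDC library and 38.2 CPM in the PBS library, with wild type PBS at 8.25 and 111 CPM. In each the wild type libraries enclosed the PBS library, and the MDC library was above both. Myl2 and Myl3, the slow light chains, had log2 ratios of 2.36 and 2.34. Atp2a2, the slow calcium pump, was at 218 CPM in the MDC library and 63.1 CPM in the PBS library, and its regulator Sln, sarcolipin, at 33.5 CPM in the MDC library and 9.59 CPM in the PBS library, with wild type PBS at 0 and 4.41 CPM and no other library above 19.1 CPM. Csrp3 and Ankrd2, stretch-responsive Z-disc genes, had log2 ratios of 1.96 and 1.44, and wild type library 2 was above the MDC library for both. Casq2 and Pln, slow calcium-store genes, were under 2-fold, at log2 ratios of 0.47 and 0.02.

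**Figure D4:**
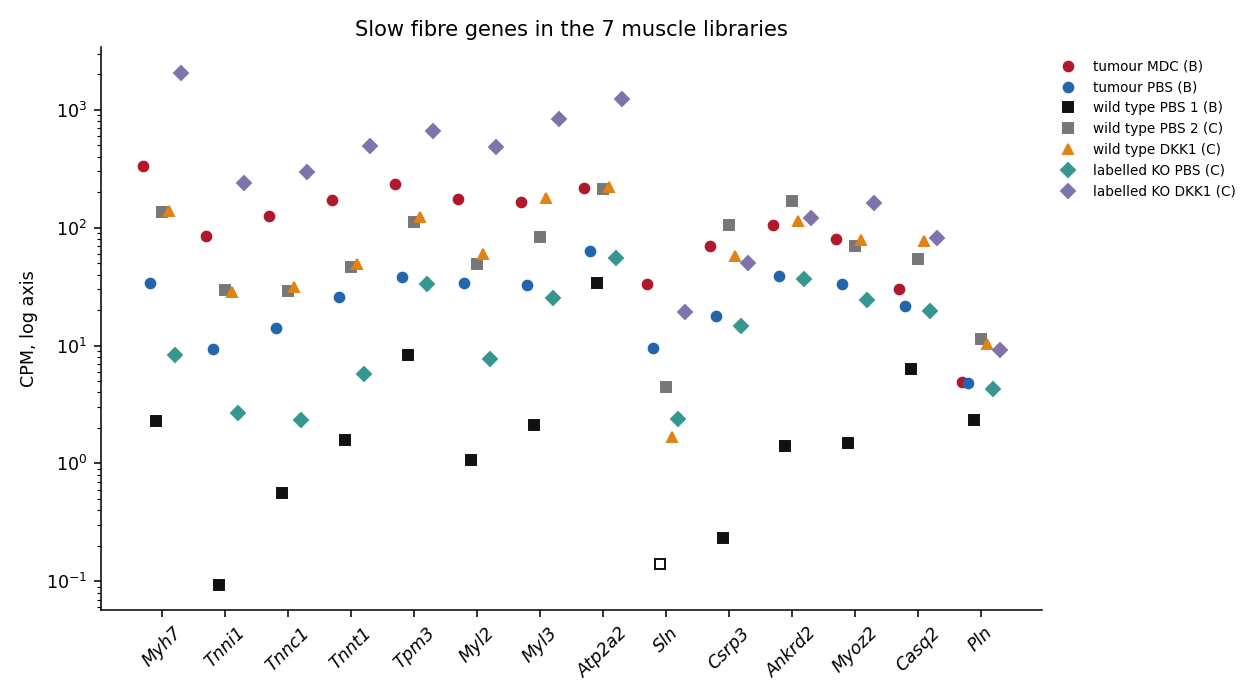
Points give CPM on a log axis for 14 slow fibre genes in the 7 muscle libraries, with an open square where a gene had 0 counts, drawn at the limit of 3 counts. Wild type library 1 is the lowest for all 14 genes and the tumour PBS library lies below the MDC library in each, most narrowly for Pln (4.79 and 4.87 CPM).

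Fast fibre genes were closer in the 2 libraries. None of 22 was past 2-fold, and the median was 0.36. Per length, in the authors' RPKM summed over Myh1, Myh2, Myh4 and Myh7, the fastest myosin gene Myh4 held 91.2% under MDC and 89.3% under PBS. Myh1, of IIX fibres, held 6.6% and 8.76%, Myh2, of IIA fibres, 1.65% and 1.84%, and Myh7 0.531% and 0.0811%. Slow myosin was therefore under 1% of these 4 genes in both libraries. In wild type libraries 1 and 2 the Myh4 share was 96.5% and 68.5%, so the pair of tumour libraries was the closer one. Myh6, the heart myosin, was at 161 CPM in the MDC library and 17.4 CPM in the PBS library, with wild type PBS at 0.562 and 52.7 CPM. Igfn1 and Mrln left the slow pattern, since the values in wild type library 1 exceeded those in library 2. Igfn1, a protein found at muscle Z-discs, was at 32.7 CPM in the MDC library and 5.03 CPM in the PBS library, a ratio of 6.51 (95% counting interval 5.51 to 7.74), with wild type PBS at 16 and 7.59 CPM. Mrln, myoregulin, an inhibitor of the fast calcium pump, was at 119 CPM in the MDC library and 44.5 CPM in the PBS library, with wild type PBS at 104 and 19.6 CPM. For both, the PBS library was below wild type library 1.

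The genes known for muscle wasting showed no common direction. Fbxo32, atrogin-1 (chromosome 15, 58175879 to 58214932 in mm10), had 609 CPM in the MDC library and 314 CPM in the PBS library, a ratio of 1.94 (95% counting interval 1.89 to 1.99), with wild type PBS at 346 and 216 CPM, the DKK1 library at 93.4 CPM and the libraries labelled knockout at 341 and 384 CPM. The MDC library was the highest of the 7, and the difference stayed just under 2-fold. Trim63, MuRF1, was at 205 and 191 CPM, with wild type PBS at 247 and 119 CPM. Of 27 atrophy ligase and FoxO genes 0 were at least 2-fold higher and 2 lower (median -0.04). These were Foxo3, a factor that drives the program, at 1.25 CPM in the MDC library and 3.68 CPM in the PBS library, and Trim55, MuRF2, at 6.83 CPM in the MDC library and 16.9 CPM in the PBS library. Foxo3 was 1 of the 2 list members that reached 100 counts in the PBS library alone. Wild type PBS values were 0.422 and 8.6 CPM for Foxo3 and 11.9 and 41 CPM for Trim55, a wider gap than between MDC and PBS. Foxo1 and Foxo4 had log2 ratios of -0.28 and 0.33. None of 31 proteasome subunits was past 2-fold, yet 30 had a log2 ratio above 0 (median 0.32), as did 38 of 41 respiratory chain subunits (median 0.30). Of all 10982 genes 5684 were above 0. Between wild type libraries 2 and 1 the same 2 lists had medians of -0.65 and -0.79. With total counts as the scale, the median of all genes was -0.27, so the distance of these medians from 0 depends on the scaling. None of 30 autophagy, 28 myostatin and BMP or 21 IGF axis genes was past 2-fold, with medians of 0.05, -0.09 and -0.08.

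Wnt pathway transcripts bear on the study's title. Lrp6, the co-receptor itself (chromosome 6, 134446476 to 134566965 in mm10), had 34.1 CPM in the MDC library and 35 CPM in the PBS library, a ratio of 0.973 (95% counting interval 0.888 to 1.07), with wild type PBS at 34.6 and 59.4 CPM. Its RNA level says nothing of the protein at the cell surface. Lrp5, the related co-receptor, was at 9.47 CPM in the MDC library and 17.8 CPM in the PBS library, with wild type PBS at 6.05 and 32 CPM. Of the Dkk1 receptors, Kremen1 was at 43.2 and 40.8 CPM and Ckap4 at 7.59 and 13.5 CPM. Dkk1 had 6 counts in the MDC library and 0 in each of the other 6, at least 3.04-fold higher with the PBS library set to 3 counts. Dkk3, a family member that does not bind these co-receptors (chromosome 7, 112116017 to 112159057 in mm10), had 139 CPM in the MDC library and 49.4 CPM in the PBS library, a ratio of 2.82 (95% counting interval 2.66 to 3.0), with wild type PBS at 159 and 83.1 CPM and the DKK1 library at 30.9 CPM. It was the only one of 21 Dkk and Wnt receptor genes past 2-fold (median -0.17).

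Axin2, the feedback target most used as a readout of beta-catenin (chromosome 11, 108920349 to 108950783 in mm10), had 48 counts, or 2.14 CPM, under MDC and 169 counts, or 4.97 CPM, under PBS, a PBS to MDC ratio of 2.32 (95% counting interval 1.67 to 3.26). Wild type PBS was at 4.26 and 7.99 CPM and the other 3 libraries at 6.31 to 9.98 CPM, so the MDC library was the lowest of the 7. It was the only one of 19 beta-catenin targets with 100 counts past 2-fold (median -0.06). Nkd1, another feedback gene, was at 2.55 CPM in the MDC library and 4.09 CPM in the PBS library, and Ctnnb1, beta-catenin, at 238 and 252 CPM. None of 25 endocytosis and transglutaminase genes was past 2-fold, with log2 ratios from -0.68 to 0.67. Tgm2, tissue transglutaminase, was at 130.00 CPM in the MDC library and 172 CPM in the PBS library, and the beta-arrestin genes Arrb1 and Arrb2 had log2 ratios of -0.07 and 0.26.

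Early response and stress genes were lower in a few members. Fos, the AP-1 subunit, was at 6.48 CPM in the MDC library and 25.3 CPM in the PBS library, with wild type PBS at 34.1 and 75.8 CPM, and Btg2 at 21.7 CPM in the MDC library and 47.8 CPM in the PBS library. Maff and Ppp1r10 completed 4 of 25 at least 2-fold lower (median -0.46), and all 4 were lower in the MDC library than in wild type library 2. Chac1, which degrades glutathione and is an ATF4 target, was at 42.7 CPM in the MDC library and 94 CPM in the PBS library, alone among 19 amino acid stress genes to pass 2-fold (median 0.19). Per3, a clock gene, was at 57.1 CPM in the MDC library and 23 CPM in the PBS library, with the other 5 libraries from 34.3 to 47.5 CPM, so PBS was the lowest and MDC the highest of the 7. The other 17 clock genes with 100 counts were under 2-fold. Of 25 nerve contact and denervation genes with 100 counts, 2 were at least 2-fold lower and 1 higher, Sln (median -0.12). For 5 of the 25 the PBS library alone reached the minimum. Ache, acetylcholinesterase, was at 19.6 CPM in the MDC library and 43.7 CPM in the PBS library, with wild type PBS at 54.2 and 79 CPM. Runx1, a factor of denervated muscle, was at 1.56 CPM in the MDC library and 3.73 CPM in the PBS library.

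Among markers of other organs, amylase genes and some liver genes were past 2-fold. The pancreatic amylase genes Amy2a5 and Amy2a2, which are close copies that share reads, had 40 and 22 counts under MDC, 497 and 349 under PBS and 0 in the other 5 libraries. No other acinar gene except Amy1, which other tissues express, had more than 10 counts in either tumour library. Of 7 liver genes with 100 counts, 2 reached that minimum in the MDC library alone. At least 2-fold higher under MDC were 3 of the 7, while 3 had log2 ratios below 0, the lowest -0.99. The higher ones were Alb, at 6.03 CPM in the MDC library and 2.29 CPM in the PBS library, Serpina1a, at 7.95 and 2.97 CPM, and Serpina1c. Summed over the 20 liver genes detected, the level was lower under MDC (124 CPM) than under PBS (144 CPM), with wild type PBS at 78.2 and 317 CPM. Kera, a tendon and cornea proteoglycan, was at 8.04 CPM in the MDC library and 1.94 CPM in the PBS library, with wild type PBS at 4.97 and 0.698 CPM. Erythroid genes summed to 6811 CPM under MDC and 3768 CPM under PBS, above the wild type PBS libraries (1329 and 1197 CPM). Most of the sum was alpha-globin, with Hba-a1 and Hba-a2 at 2548 and 2556 CPM under MDC and 1278 and 1281 CPM under PBS. The 2 genes had nearly equal values and both enter the sum, and whether they share reads was not tested. None of the 6 erythroid genes with 100 counts was past 2-fold, and their median log2 ratio was 0.10. Whether such cells or tissue took part in the other results was not tested.

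The 2 wild type PBS libraries share no library with the comparison and give the size of differences within a group, here across sets B and C. Between them 14.3% of 10701 genes with 100 counts were at least 2-fold higher in library 2 and 12.1% lower. Of the 348 genes lower under MDC, 212 (60.9%) were at least 2-fold higher in wild type library 2 than in library 1 and 19 (5.46%) lower, against 12.9% and 11.96% of all genes in the comparison. Of the 129 genes higher under MDC, 24 (18.6%) were higher in library 2 and 46 (35.7%) lower. Most genes lower under MDC thus also separated the wild type pair, as Fasn, Retn and Mpeg1 do in the plot of the 2 differences. Across the 10982 genes the 2 log2 ratios had a Pearson r of -0.378, given as a description, since genes are not independent replicates. For 237 of the 477 genes past 2-fold (49.7%) the wild type pair differed less than MDC and PBS did, against 25.0% of all genes in the comparison. The larger share is partly fixed by the rule, which chose the 477 for a large difference between MDC and PBS. Cish, Cxcl13, Bcl6, Pdk4, Selp and Per3 were among the 237.

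**Figure D5:**
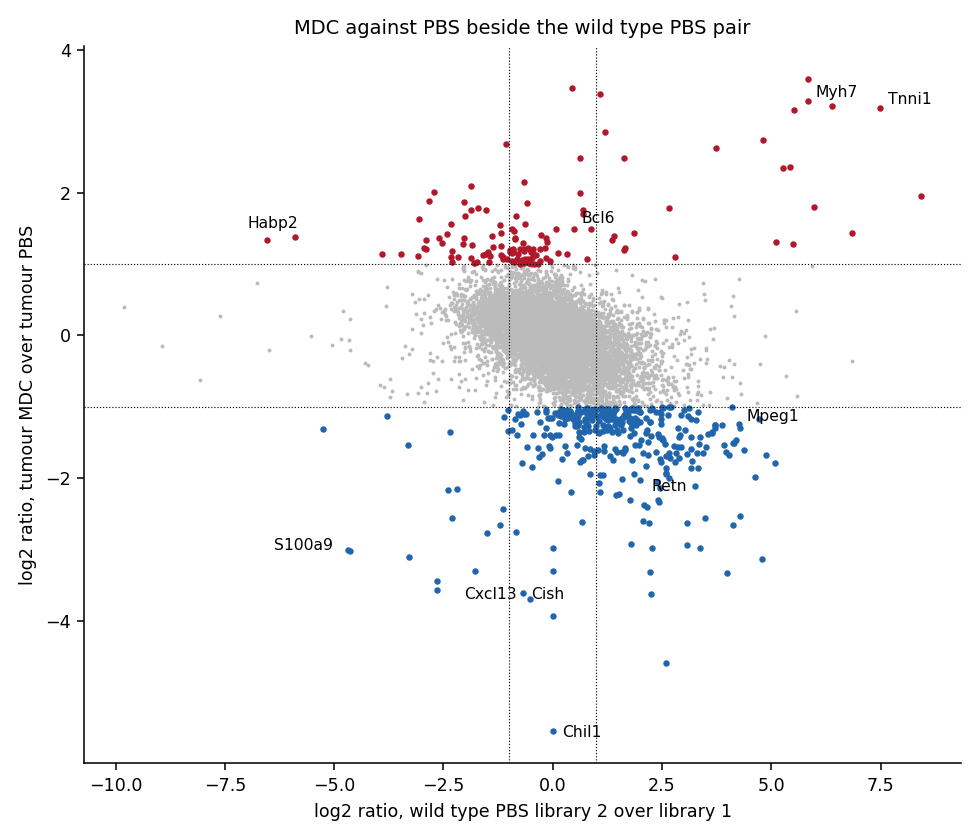
Each point is 1 of 10982 genes, with the log2 ratio of wild type PBS library 2 over library 1 on the horizontal axis and of tumour MDC over tumour PBS on the vertical axis, and dotted lines at 2-fold. Of the 348 blue genes 212 lie to the right of the right-hand line, while Cish and Cxcl13 lie between the vertical lines and slow fibre genes such as Myh7 lie at the upper right.

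The position of both libraries among the 5 other muscle libraries is a description only, since it is partly fixed by the ratio that chose the genes. The MDC library was above the 5 others for 79 of the 129 higher genes (61.2%, against 21.2% of all genes in the comparison). The tumour PBS library was below them for 18 of the 129 (14.0%), close to the 14.3% of all genes. Of the 348 lower genes, the MDC library was below the 5 others for 135 (38.8%, against 17.7% of all genes). The tumour PBS library was above them for 103 of the 348 (29.6%, against 14.6% of all genes). Cish, Selp, Cxcl13, S100a9 and Mt2 belonged to the genes highest in the tumour PBS library, and Pdk4, Ucp3, Axin2 and Slc30a1 to those lowest in the MDC library. Both kinds rest on 1 library each.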

How the data were processed

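RNA was extracted with TRIzol and made into Illumina libraries, per the labels. The aligner was HISAT2 2.1.0 and the genome build mm10, per the submitters' processing notes. How reads were assigned to genes, and whether strand was used, is not given in the sources used here. The deposited tables give raw read counts for 24421 gene symbols and RPKM computed by the authors, which differed from a recalculation out of the counts and gene lengths by less than 0.0005% for genes with 100 or more counts. Counts were the main unit, and RPKM served only for shares of myosin genes.

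TMM factors from genes kept by filterByExpr (minimum count 10) over the 7 muscle libraries were applied to all genes, and log2 ratios with 2 added as prior count came from edgeR 4.0.16 in R 4.3.3, with limma 3.58.1 and DESeq2 1.42.0 as alternatives. Of genes with the same counts in every library (52 genes in 23 groups) 1 per group was kept. Ratios carry exact conditional binomial 95% intervals, which cover counting error only, and a count of 0 was set to 3 counts. With 1 library per group no test over samples was possible for this pair alone. edgeR's quasi-likelihood fit took 1 residual degree of freedom from the wild type pair and had a common biological coefficient of variation of 0.498. Samples were grouped by their labels. Nothing in the labels says that libraries came from separate animals.

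Genes were named as the 30 highest and 30 lowest past 2-fold, leaving out pseudogenes, microRNAs, small nucleolar RNAs and genes with only a predicted or RIKEN name, as up to 4 members each way from each list, as all members of 5 lists, and as a panel, 225 in all. Other genes named, such as Mpo, Vcam1, Csf1r, Lpl, Mlxipl, Cpt1b, Nkd1 and Tgm2, were picked with their values in view. The comparison and the 60 gene lists were chosen with earlier results of these data known. RefSeq promoters matched 168 of the 225 named genes, and gene positions are from GENCODE on GRCm38, the same assembly as mm10. Sex-linked genes and a few others are not reported here.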

Additional observations from a re-analysis of the deposited data

How the results depend on the processing

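No paired analysis was possible because nothing in the labels ties 2 libraries to the same mouse. The counts of genes at least 2-fold higher and lower, 129 and 348, moved with the rule itself: no minimum count gave 1113 and 1701, a minimum of 500 counts 58 and 75, a 1.5-fold limit 536 and 1102, and a 3-fold limit 33 and 107. Total count scaling gave 61 and 741, which held all 348 lower genes and 61 of the 129. A minimum of 100 counts in both libraries, added after seeing the data, gave 99 and 94, and a minimum of 4.47 CPM in the higher library, also added then, 128 and 243. DESeq2 size factors (133 and 342), TMM on the pair alone (124 and 364), upper quartile scaling (124 and 364) and a prior count of 0.5 (130 and 360) moved them less. Leaving out a wild type PBS library from the scaling gave 122 to 129 higher and 348 to 368 lower. The same omission left edgeR no residual degree of freedom, so that test could not be fitted. The 0 calls of edgeR stayed 0 with DESeq2 size factors and with no filter (81 genes at an unadjusted p under 0.05, smallest adjusted p 0.157), and DESeq2's smallest adjusted p was 0.117.

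None of the 125 named genes past 2-fold changed sign under the scalings and prior count tried. Of the 100 others, 17 changed sign with total counts, each at most 0.26 from even on the log2 scale, such as Trim63 and Kremen1. Trim32 and Gadd45a, both near even, changed sign with DESeq2 size factors. Of the 125 past 2-fold, Myh7b, Fbp2, Tmem100, Tpx2 and Comp came under 2-fold with total counts, and Tpx2 without wild type PBS library 2. Total count scaling shifts every gene alike and moved all 59 list medians, 9 of them across 0, as it moved the median of all genes from 0.02 to -0.27. Counting all detected members moved 15 of the 59. Low counts limit the neutrophil genes, since 9 of 10 granule genes and 11 of 15 surface genes reached the minimum in the PBS library alone.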

Other observations

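Some RNAs that stay in the nucleus or take part in splicing were among the genes higher in the MDC library. They were chosen after their values were seen, and how many such RNAs did not differ was not counted. Neat1, the scaffold RNA of paraspeckles, was at 1357 CPM in the MDC library and 518 CPM in the PBS library, with wild type PBS at 923 and 354 CPM. Malat1, a nuclear speckle RNA, was at 369 CPM in the MDC library and 159 CPM in the PBS library, with wild type PBS at 335 and 298 CPM, and Meg3, an imprinted non-coding RNA, at 18.6 CPM in the MDC library and 5.82 CPM in the PBS library. The snoRNA host genes Snhg14, Snhg8 and Gas5 had log2 ratios of 1.56, 1.23 and 1.01. Among protein-coding genes, the splicing kinases Clk1 and Clk4 were at 97.4 CPM in the MDC library and 41.9 CPM in the PBS library and 61.3 CPM in the MDC library and 29.2 CPM in the PBS library. Luc7l2, a U1-associated splicing factor, was at 218 CPM in the MDC library and 105 CPM in the PBS library, and Ccnl2, a cyclin of splicing speckles, at 67.8 CPM in the MDC library and 33.4 CPM in the PBS library. RNA polymerase III transcripts included Rmrp at 180 counts against 24 and Rpph1 at 132 against 16. Wild type PBS library 1 had Rmrp at 9.09 CPM, near the MDC value of 8.04 CPM. Lars2, a protein-coding gene, was at 862 CPM in that library and at 923 CPM under MDC.

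Other genes far from even were these. Tmem45b had 2 counts under MDC against 129, a PBS to MDC ratio of 42.5 (95% counting interval 11.5 to 354), with wild type PBS at 1.12 and 7.11 CPM. Stc1, the secreted hormone stanniocalcin-1, had 4 counts against 102, a ratio of 16.8 (95% counting interval 6.36 to 62.8). Ppp1r3b and Pygl, of glycogen handling, were at 1.07 CPM in the MDC library and 6.88 CPM in the PBS library and 3.71 CPM in the MDC library and 15.1 CPM in the PBS library. Col7a1, an anchoring collagen, was higher, at 18.5 CPM in the MDC library and 4.29 CPM in the PBS library, with wild type PBS at 19.96 and 5.37 CPM.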
